A study of Homo sapiens with 2 samples.

Results

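Isolated accessible regions are the 1895 peaks of the control library that lay at least 100 kb from every other control peak, out of 55124 control peaks on chromosomes 1 to 22 and X. They were chosen by position alone: the gap from the end of one peak to the start of the next was 100000 bp or more on both sides, and a chromosome end counted as no neighbour, which applied to 12 of them. The peaks come from ATAC-seq, which marks open chromatin by the insertion of sequencing adapters with a transposase, in Z-138, an established human mantle cell lymphoma line. One library was made from Z-138 cells with a control shRNA and 1 from Z-138 cells with an shRNA that knocks down SMARCA4, an ATPase of the SWI/SNF remodelling complexes. Both cultures received doxycycline, the labels name no other treatment, and the peak names of both lists hold the term DMSO, a common solvent control. The sources used here do not say whether either culture was 1 clone. The knockdown list held 41540 peaks on the same chromosomes. With 1 library per group there is no replicate check of any difference between control and knockdown, and no p-value is given; the intervals are 95% and cover counting error only.

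Most open chromatin of a cell lies at the promoters and enhancers of active genes, and such sites tend to lie close together in gene-rich, early replicating parts of the genome. Between them are long stretches, often gene-poor, in which open sites are rare; those that occur may be distal enhancers, boundary elements bound by CTCF, or repeats. SWI/SNF complexes slide and evict nucleosomes and are known to be needed for accessibility at many distal enhancers, more than at promoters. A gene annotation or genome sequence of the files' build, hg19, was not used here, so regions are given by coordinates, counted from 1, without genes, promoters or sequence motifs.

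Isolation varied among the members. The smaller of a member's gaps had a median of 131.7 kb (interquartile range 112.7 to 168.6 kb), so most lay not far past the limit: 1221 had a smaller gap of 100 to 150 kb, 425 of 150 to 200 kb, 187 of 200 to 300 kb and 62 of 300 kb or more. Just inside the limit were chr2:215867342-215867510, with a smaller gap of 100005 bp, and chr2:31261446-31261539, with 100025 bp. Just outside were chr14:72883727-72883829 and chr14:72983827-72984000, which are 99997 bp from each other. The 2 inside had folds of 10.2 and 4.03, and the 2 outside 5.65 and 3.23, where the fold is the enrichment the caller reported, the summit's stacked reads plus 1 over the local background plus 1. The first of those inside and both of those outside had a knockdown partner.

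The 6 most isolated members had summits of 5 to 7 reads, at or below the members' median of 7. The peak chr7:57584024-57584117 lay 1198 kb from its left and 4892 kb from its right neighbour, and had a fold of 4.03 and a summit of 5 stacked reads. The peak chr22:16166578-16166676 was the first of its chromosome, 1119 kb before the next, with a fold of 5.65 and 6 reads. Whether such gaps hold sequence to which reads can be mapped was not checked. The peak chr16:6385253-6385376 (smaller gap 986.4 kb) had a fold of 4.84 and 5 reads, and chr19:31961320-31961447 (767.6 kb) had a fold of 5.65 and 6 reads. At 665.5 kb came chr3:54887985-54888155 and at 564.1 kb chr15:61377275-61377529, both with 7 reads and with folds of 6.45 and 6.43, above the members' median fold of 6.16. Only the one on chromosome 3 of these 6 was overlapped by a knockdown peak, of 8 reads.

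As a group, isolated peaks had lower summits than other control peaks and a quieter surrounding. Their median summit pileup, recovered from the deposited fold and p-value, was 7 reads (interquartile range 5 to 11) against 9 (6 to 14). Their median width was 143 bp (100 to 208) against 162 bp (111 to 248). Their median fold was closer, 6.16 (4.84 to 8.73) against 6.45 (4.84 to 8.96). The background around them was the lowest value of the list, 0.24 reads, for 669 members or 35.3% (33.1 to 37.5%), against 20.05% of other peaks. The list's strongest folds were not missing among them: 71 members, or 3.75% (2.94 to 4.70%), had a fold of at least 15, against 3.37% of other peaks. Wide peaks were fewer, 31 members of 600 bp or more, or 1.64% (1.11 to 2.31%), against 2.71%. These values come from the list that chose the members and are a description.

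Isolated peaks occurred on every chromosome analysed, at unequal frequency. On chromosome X 158 of 1946 control peaks were isolated, or 8.12%, the highest share of the 23. Chromosome 19 had the lowest, 15 of 1524, or 0.984%. Chromosome X had 12.5 control peaks per Mb between its first and last peak and chromosome 19 had 25.8, the lowest and the highest density. Chromosomes 20 and 22 followed X with 5.24% and 5.06%, and chromosomes 12 and 7 came next to 19 with 1.80% and 1.95%. A peak on a sparse chromosome is more often isolated by construction.

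Within chromosomes, members were spread widely but also came in series. At least 1 member lay in 539 of the 598 windows of 5 Mb that held a control peak. The fullest windows were on chromosome X, with 12 members from 25 to 30 Mb, 11 from 85 to 90 Mb and 10 from 95 to 100 Mb, of which 4, 4 and 5 had a knockdown partner. Of all members, 848 had another member as a direct neighbour, and 1047 had no isolated neighbour. The longest series, 7 members on chromosome 4 from 4721250 to 5942520, had a knockdown partner for 1. Series of 6 lay on chromosome 1 from 49510131 to 50231038 (3 with a partner), chromosome 15 from 29561757 to 30918413 (4), chromosome 20 from 37862501 to 39370391 (2) and chromosome X from 96090762 to 97164531 (4). These windows and series were picked with their values in view.

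A knockdown peak overlapped 947 of the 1895 isolated peaks by at least 1 bp, or 49.97% (47.7 to 52.2%), and 948 had no partner. Over all control peaks the share overlapped was 60.5% and the share without a partner 39.5%, and over the 53229 other control peaks 60.9% (60.5 to 61.3%). Among the members the share was 52.6% (49.7 to 55.4%) at a smaller gap of 100 to 150 kb, 45.6% (40.8 to 50.5%) at 150 to 200 kb, 48.1% (40.8 to 55.5%) at 200 to 300 kb and 33.9% (22.3 to 47.0%) at 300 kb or more. The intervals of the middle classes overlap, so no order among them is given. Control peaks just short of the limit, with a gap of 50 to 100 kb, were overlapped in 55.5% (54.2 to 56.8%) of 5306 cases. Those with a gap of 5 to 50 kb were overlapped in 58.2% of 31385 cases, and those with a gap below 5 kb in 67.6%. The intervals at 50 to 100 kb and at 100 to 150 kb overlap, so no step at the limit is shown. Summits and background moved along with the gap: the median pileup was 8 reads at 100 to 150 kb and 6 reads in each class beyond, and the share with the lowest background went from 30.6% to 72.6%.

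**Figure D1:**
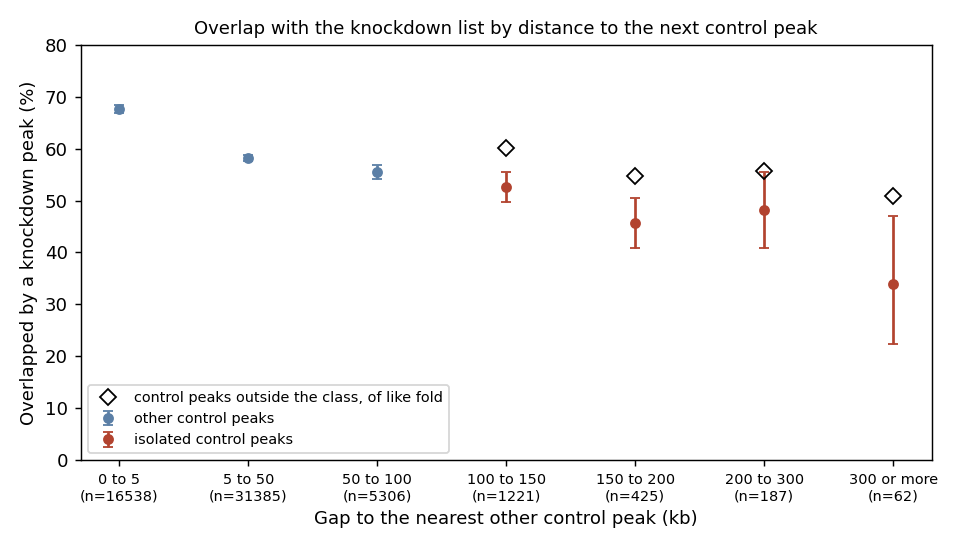
Share of control peaks overlapped by a knockdown peak (y axis, %) in classes of the gap to the nearest other control peak (x axis, kb, with the number of peaks). Circles are observed shares with 95% exact binomial intervals, red for isolated peaks, and open diamonds are the share in control peaks outside the class of like fold; the share goes from 67.6% below 5 kb to 33.9% at 300 kb or more, and the diamonds lie above the circles in all 4 classes of isolated peaks.

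Peaks of like fold, and of like summit pileup, were also set side by side. Other control peaks with the same distribution over 13 bands of deposited fold were overlapped in 58.3% of cases, and the isolated peaks differed from them by -8.33 percentage points (-10.6 to -6.05). With bands of summit pileup in place of fold the difference was smaller, at -3.70 points (-5.98 to -1.43). At equal fold a peak with a lower background has fewer summit reads, and 35.3% of isolated peaks had the lowest background against 20.05% of other peaks. Like fold is therefore not like read support. The difference by fold was clearest among weak and middling peaks. Below a fold of 4, 5 of 107 isolated peaks had a partner, or 4.67% (1.53 to 10.6%), against 18.2% of other peaks. From 6 to 7 it was 49.3% (42.7 to 56.0%) against 62.7%, and from 7 to 8 59.3% (51.4 to 66.8%) against 72.9%. From 10 to 12 the shares were 91.5% (85.4 to 95.7%) and 92.1%, a difference within counting error.

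**Figure D2:**
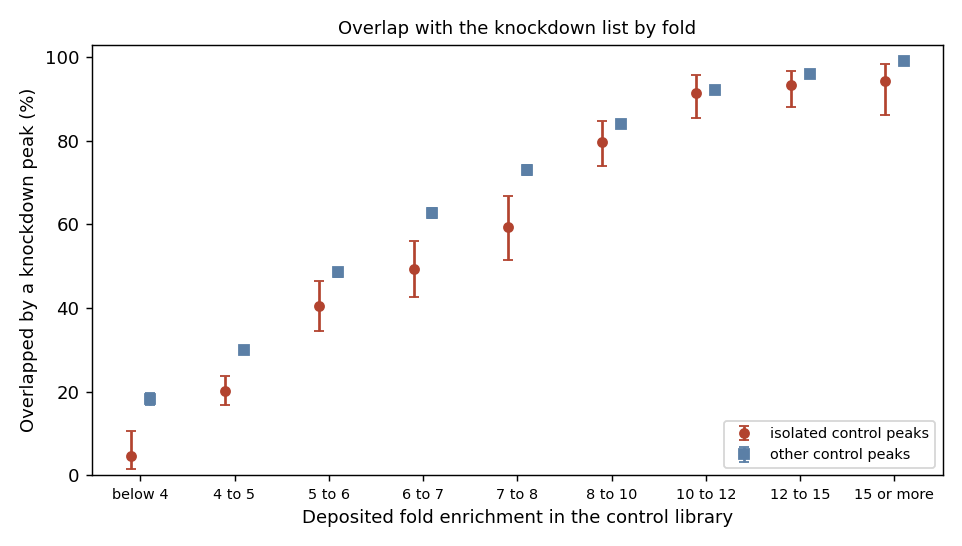
Share of control peaks overlapped by a knockdown peak (y axis, %) in bands of deposited fold (x axis), with 95% exact binomial intervals. Isolated peaks (red circles) lie below other control peaks (blue squares) in every band, with a difference of -13.4 points from 6 to 7 and of -0.521 points from 10 to 12.

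By summit pileup the bands did not all point one way. Members with up to 4 reads had a partner in 12.2% (8.61 to 16.5%) of cases against 17.1% of other peaks. At 5 reads it was 20.4% (16.1 to 25.3%) against 28.0%, and at 7 reads 44.2% (36.6 to 51.9%) against 48.1%. Members with a summit of 8 reads had a partner in 48.3% (40.1 to 56.6%) of 149 cases against 58.7% of other peaks, and those of 9 reads in 56.4% (46.6 to 65.8%) of 110 against 66.3%. With 13 to 15 reads the order was the opposite, 92.1% (85.5 to 96.3%) of 114 members against 86.6%, with the 86.6% inside the members' interval. At 6 reads it was 39.6% (33.2 to 46.2%) against 38.9%, and above 9 and up to 12 reads 76.6% (70.7 to 81.9%) against 76.1%. Above 15 and up to 20 reads the shares were 90.8% (84.4 to 95.1%) and 92.9%, and above 20 and up to 25 reads 94.4% (86.2 to 98.4%) and 98.1%. Above 25 reads they were 97.4% (91.0 to 99.7%) and 99.5%. The share also differed by background. That background is counted in 10 kb of the same library and includes the peak's own reads. A split by it is therefore not separate from summit strength: members without a partner had a median summit of 5 reads and those with one 11. Members with the lowest background had a partner in 28.3% (24.9 to 31.8%) of cases against 32.7% of other such peaks, and members above it in 61.8% (59.0 to 64.6%) against 68.0%.

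Among members of high fold, those without a partner were few, and their share was above that of other peaks of high fold. By summit pileup, in every band above 15 reads, the partner share of other peaks lay inside the members' interval. At a fold of at least 12, 14 of 221 isolated peaks had no knockdown partner, or 6.33% (3.51 to 10.4%), against 157 of 5348 other peaks, or 2.94%; over all control peaks of that fold the share was 3.07%. At a fold of at least 15 the numbers were 4 of 71, or 5.63% (1.56 to 13.8%), and 17 of 1793, or 0.948% (0.553 to 1.51%), with 1.13% over all control peaks of that fold. Where a partner had to cover 50% of the control peak, 31 isolated peaks of fold 12 or more had none, or 14.0%, against 8.64% of other peaks.

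The 6 strongest members without a partner had summits well above the caller's limit and no knockdown peak for a long way. The strongest, chr8:60489422-60489758, had a fold of 19.2 and 33 reads, which correspond to 44.3 reads at the knockdown depth, and its nearest knockdown peak was 140.8 kb away. The peak chr13:58520592-58520809 had a fold of 18.5 and 32 reads, and its nearest knockdown peak was at 198.8 kb. The peak chrX:112766205-112766417 had a fold of 15.9 and 21 reads, with gaps of 247.9 and 224.6 kb to its control neighbours and 262.2 kb to a knockdown peak. All 3 thus stood in stretches where the knockdown list held nothing for over 100 kb. The same was true of chr4:106227443-106227818 (fold 15.1, 22 reads, 154.5 kb), chr3:29453706-29453961 (fold 14.5, 23 reads, 136.6 kb) and chr13:77758565-77758795 (fold 14.2, 21 reads, 142.0 kb). Of all 948 members without a partner, 690, or 72.8%, had no knockdown peak within 100 kb. The isolation rule favours such distances, so they are not read as a trait of these 6. The lowest summit called in the knockdown library had 4 reads. Absence from that list therefore means a signal below its limit and does not show closed chromatin.

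The 6 members with the highest fold were all present in the knockdown list, each with fewer reads. The peak chr15:20747071-20747287 had the highest control fold, 28.4, and 41 reads, and its knockdown partner had a fold of 21.9 and 28 reads. At chr3:80154394-80154623 the control had a fold of 24.7 and 43 reads, the knockdown 14.7 and 22 reads, with the summits at the same base. At chr9:11064956-11065303 it was 24.4 and 57 reads against 17.5 and 50 reads. These members were picked for a high control fold, which by itself favours a lower value in the other list, so nothing is read from the direction. Folds rest on each list's own background and are given side by side, not as a level to compare. The peak chr5:30161191-30161559 had the most reads of any member, 64, with a fold of 23.4, against 26 reads and a fold of 14.1 in the knockdown list. At chr3:96858070-96858294 the values were 21.6 and 41 reads against 21.1 and 38 reads, and at chr10:119656074-119656319 they were 21.2 and 31 reads against 18.2 and 26 reads. Scaled by depth, the log2 ratio of knockdown to control was lowest at the peak on chromosome 5, at -1.72 (counting interval -2.44 to -1.05). It was -1.39 (-2.20 to -0.62) at chr3:80154394-80154623, and at chr3:96858070-96858294 it was -0.53 (-1.21 to 0.14), an interval that includes 0.

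At the 947 isolated peaks with a partner, the knockdown summit was lower than depth would give, by more than at other peaks. Depth was scaled by the ratio of the lists' lowest backgrounds, 1.34 in favour of the knockdown. At these pairs the median control pileup was 11 reads and the median knockdown pileup 10; at other pairs they were 11 and 12. The log2 ratio, knockdown over control, had a median of -0.36 (-0.42 to -0.30) at isolated peaks and -0.24 (-0.25 to -0.23) at 32411 other pairs. With local scaling, by the reads in the 10 kb around each peak, the medians were -0.26 (-0.30 to -0.21) and -0.13 (-0.13 to -0.12), over 669 and 27264 pairs with a background above the lowest value in both lists. A log2 ratio of -1 or lower was found at 151 isolated pairs, or 15.9%, where 11% of all pairs had one. A ratio of 1 or higher was found at 4 isolated pairs, or 0.422%, where 1.36% of all pairs had one. With local scaling the share at -1 or lower was smaller in both, 34 of 669 isolated pairs, or 5.08%, and 3.16% of all such pairs, and the share at 1 or higher was 0.149% and 1.32%. Those 10 kb include the peak itself, so local scaling divides out part of the peak's own change. Smaller values under it are therefore partly built in, and it is not an independent scaling by the surroundings.

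**Figure D3:**
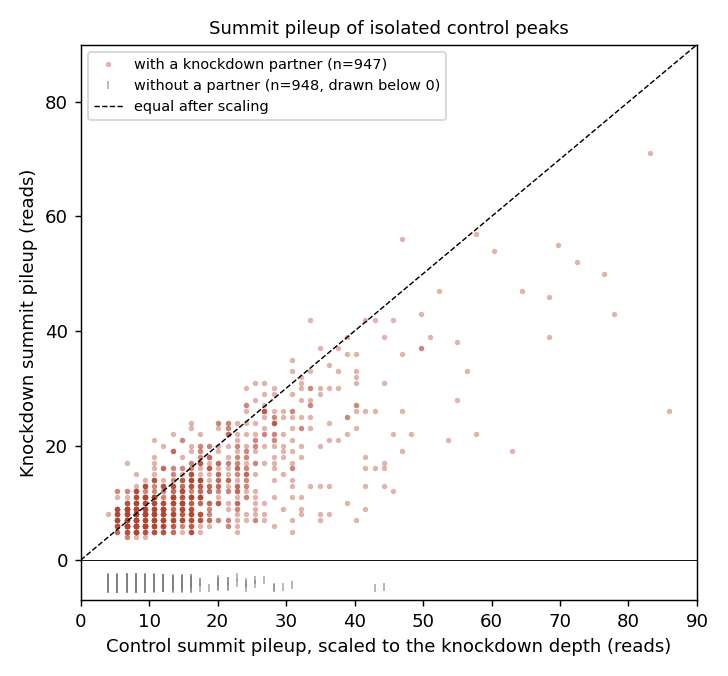
Recovered summit pileup of each isolated peak in the knockdown library (y axis, reads) against its control pileup scaled to the knockdown depth (x axis, reads). Each red point is 1 of the 947 members with a partner, grey ticks below 0 mark the 948 without one, and the dashed line marks equality; 226 of the points lie above the line.

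The lower ratio at isolated peaks was clearest at 8 to 10, 11 to 15 and 26 or more control reads. The bands are set by the control reads alone, which by itself favours a lower knockdown value at high summits. Whether it does so by the same amount in both groups was not tested. A weak control peak has a partner only where the knockdown summit passed the caller's limit, which lifts the ratios of low summits in both groups. In pairs of 3 to 5 control reads the medians were the same, 0.25. From 6 to 7 reads they were -0.20 in isolated and -0.06 in other pairs, with intervals that overlap. At 8 to 10 reads the medians were -0.42 (-0.42 to -0.29) and -0.25, at 11 to 15 reads -0.55 (-0.63 to -0.42) and -0.32, and at 26 or more -0.62 (-0.81 to -0.42) and -0.38. At 16 to 25 reads, -0.49 (-0.60 to -0.42) in isolated and -0.37 (-0.42 to -0.36) in other pairs, the intervals meet at -0.42. Of the 288 isolated pairs with at least 15 control reads, 29 had a ratio above 0, or 10.1%, against 14.96% of other such pairs.

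**Figure D4:**
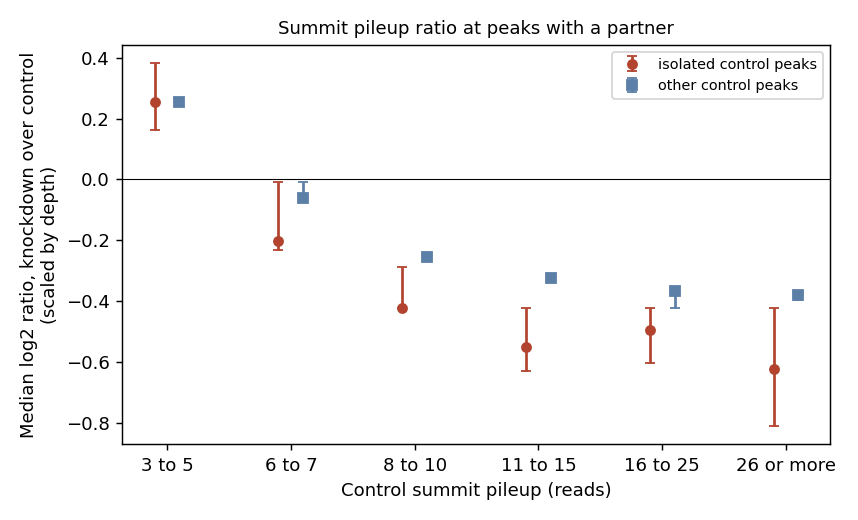
Median depth-scaled log2 ratio of knockdown to control summit pileup (y axis) in bands of control summit pileup (x axis, reads), with 95% order-statistic intervals of the median. Isolated pairs (red circles) lie at the same value as other pairs (blue squares) from 3 to 5 reads, 0.25, and below them in the other 5 bands.

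Members differed widely around these medians. Among those with at least 15 control reads the lowest ratio was at chr5:28468270-28468520, where 23 control reads stood against 5 in the knockdown, a log2 ratio of -2.63 (-4.38 to -1.20). The peak chr10:10050035-10050425 had 30 and 7 reads (-2.52, -3.96 to -1.31), chr12:126932059-126932392 had 26 and 7 reads (-2.32, -3.77 to -1.08), and chr1:49722782-49723213 had 21 and 6 reads (-2.23, -3.83 to -0.87). All 4 had 5 to 7 knockdown reads, close to the 4 reads of the lowest summit in that list. The highest ratio was 0.32 (-0.42 to 1.10), at chr13:83736747-83736948 with 25 and 42 reads. It was followed by chr2:154143691-154143939 (18 and 30 reads), chr8:103424610-103425274 (19 and 31 reads) and chr10:16478701-16479286 (35 and 56 reads), whose intervals also include 0. These members were picked for their extreme ratios.

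The 4 widest members all had a partner, which was narrower in 2 and wider in 2. The widest, chr6:26923909-26924891, was 983 bp wide with 32 reads, and its partner was 971 bp wide with 26 reads. The peak chr11:13689638-13690443 was 806 bp wide with 52 reads and had a partner of 1001 bp and 55 reads, and chr13:42845797-42846601 was 805 bp wide with 29 reads and had one of 1037 bp and 36 reads. At chr7:148395471-148396362, 892 bp and 22 reads stood against 775 bp and 25 reads. Over all isolated pairs the control peak had a median width of 184 bp and its partner one of 157 bp. The partner was the narrower in 579 pairs, or 61.1%, and in 51.6% of other pairs. The smallest width was 94 bp in the control list and 89 bp in the knockdown list, so a pair at both counts as narrower. Of all isolated peaks 21.7% had the smallest width, against 15.5% of other control peaks, so nothing is read from how often the partner was narrower. Summits lay a median 22 bp apart (interquartile range 8 to 40 bp), against 28 bp (11 to 57 bp) at other pairs.

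The surroundings of isolated peaks were sparse in the knockdown list too, which the rule itself favours. For 690 members, or 36.4% (34.2 to 38.6%), the knockdown list had no peak within 100 kb at all. Of other control peaks this was so for 2.49%, but the rule itself removes control neighbours, and with them the knockdown peaks at shared sites, so nothing is read from the difference. Of the 948 members without a partner, 16 had a knockdown peak within 500 bp, 16 at 500 bp to 5 kb, 41 at 5 to 20 kb, 185 at 20 to 100 kb and 690 beyond. A signal just under the caller's limit leaves no peak at any distance, so these distances do not tell how many were near misses. Of the 947 partners, 631 were themselves isolated in the knockdown list, or 66.6% (63.5 to 69.6%), a share that the rule sets in the same way; of all knockdown peaks 6.14% were isolated. Knockdown peaks without a control partner occurred within 100 kb of 557 members. Their density there was 1.89 per Mb (1.75 to 2.03), or 681 in 360.9 Mb, against 3.04 per Mb (2.98 to 3.11) elsewhere. The rule picks stretches with few control peaks and leaves the dense ones to the rest, so nothing is read from this difference either. Knockdown peaks without a control partner were as weak near members as elsewhere, with a median fold of 5.30 and a median summit of 7 reads in both places. The strongest near a member, chr18:65820070-65820319, had a fold of 10.5 and 18 reads, 67.0 kb from the nearest control peak.

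The lower overlap of isolated peaks was found on most chromosomes. The share with a partner was below that of other peaks on 22 of 23 chromosomes, and chromosome 18 was the exception with 59.6% (44.3 to 73.6%) against 57.4%. On 11 chromosomes the interval of the isolated share lay wholly below the share of other peaks, and on none above. On chromosome 11, 38 of 100 members had a partner (28.5 to 48.3%), against 60.7% of its other peaks, and in its window from 90 to 95 Mb 1 of 9 members had one. On chromosome 22 it was 10 of 28, or 35.7% (18.6 to 55.9%), against 63.0%, on chromosome 10 46 of 105, or 43.8% (34.1 to 53.8%), against 59.0%, and on chromosome 4 66 of 142, or 46.5% (38.1 to 55.0%), against 59.5%. On chromosome 2, with the most members, 104 of 183 had a partner, or 56.8% (49.3 to 64.1%), against 58.2%, within counting error. On chromosome X it was 73 of 158, or 46.2% (38.2 to 54.3%), against 56.4%. These shares are not adjusted for strength.

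**Figure D5:**
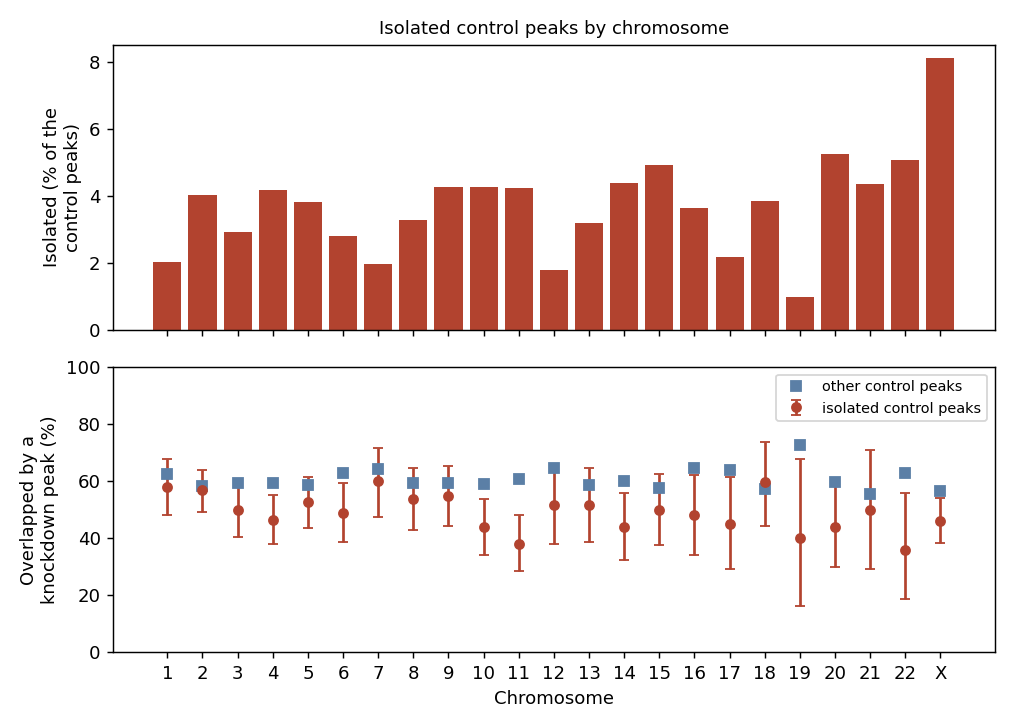
Isolated peaks as a share of the control peaks of each chromosome (upper panel, bars, %) and the share overlapped by a knockdown peak (lower panel, %) in isolated peaks (red circles, 95% exact binomial intervals) and other control peaks (blue squares). The bars run from 0.984% on chromosome 19 to 8.12% on X, and the circle lies above the square on chromosome 18 alone.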

How the data were processed

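The 2 deposited peak lists, 1 per library, were used. Tools named in the submitters' processing notes are MACS2, BWA and bcl2fastq (2.17.1.14), with the build hg19; for other versions, parameters, insertion offsets and blacklisted regions: not given in the sources used here. Per the peak names the authors sorted alignments and removed duplicates; the control names hold the term sort once more. The deposited fold is a ratio of summit pileup to background, each plus 1; the deposited −log10 values, of p and of q, refer to the summit; the deposited score is 10 times −log10 q without decimals. None is comparable between lists as a level.

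Chromosomes 1 to 22 and X were analysed; Y was left out. Whole-number summit pileups and backgrounds were solved from fold and p by a Poisson tail, and gave back the deposited −log10 p within 4.15e-05. The lowest backgrounds, 0.24 and 0.322 reads, gave the depth ratio of 1.34. Read totals are not in the lists. A partner is a peak of the other list overlapping by at least 1 bp. Intervals of shares are exact binomial (Clopper-Pearson), those of log2 ratios of single peaks come from the binomial split of both pileups, and those of densities are exact Poisson; reads of amplified libraries are not independent molecules and neighbouring peaks are not independent. Shares of like strength average, over the isolated peaks, the partner share of the other control peaks in 13 bands of fold, 15 of pileup, or fold by 4 width classes. Named regions are the 6 isolated peaks of highest fold, the 6 of highest fold without a partner, the 6 with the largest smaller gap, the 4 widest, the 4 highest and 4 lowest ratios at 15 or more control reads, and 2 on either side of the limit. Members, lists and rules were chosen with earlier results of these data known. Gene, motif and promoter comparisons planned for hg19 were not run. Code was tested on simulated data. Python 3.11.15, pandas 2.3.3, NumPy 2.4.6 and SciPy 1.17.1 were used.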

Additional observations from a re-analysis of the deposited data

How the results depend on the processing

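No paired analysis was possible because each group has 1 library, and for the same reason no replicate could be left out; motif and gene-start shares with their alternatives were not run for want of an hg19 sequence and annotation. The share of isolated peaks with a partner, 49.97%, stayed below that of other peaks and below that of like fold under all 12 alternatives, and below like strength with both other strength measures. It was 43.6% with 50% of the control peak covered, 41.9% with 50% of both, 54.0% with isolation at 50 kb, 44.6% at 200 kb, 56.4% and 61.1% with both lists at q of at most 0.001 and 1e-05, 68.5% for control peaks at 1e-05 alone and 60.5% without peaks of the smallest width. The difference from other peaks, -10.9 points, became -7.33 with 50% of both, -13.9 within 500 bp, -7.44 at 50 kb, -16.0 at 200 kb, -6.23 with both lists at 1e-05, -7.98 with control peaks at 1e-05 and -7.67 without the smallest width. The difference from like fold, -8.33, became -5.11 with 50% of both, -11.5 within 500 bp and -3.70 by pileup. Within 500 bp the share was 50.8% in isolated and 64.7% in other peaks. A peak with near neighbours can be counted there through a neighbour's knockdown peak, and an isolated peak cannot. The wider difference within 500 bp is therefore partly set by the rule. Strength measures other than fold were applied to the main setting only. The 1895 members became 7201 at 50 kb, 249 at 200 kb and 2872 in a list at 1e-05, since a stricter list leaves larger gaps; knockdown peaks isolated by the same rule, 2549, became 7686 and 522. At 50 kb, 200 kb, q 0.001 and q 1e-05 the median fold of 6.16 became 6.45, 5.65, 6.86 and 8.07, the width of 143 bp became 150, 137, 157 and 179 bp, and the pileup of 7 reads became 8, 6, 8 and 10. No knockdown peak lay within 50 kb of 42.1% and within 200 kb of 9.71%. The median log2 ratio, -0.36, was -0.26 scaled to the surrounding 10 kb, which include the peak itself, and -0.52 at 15 or more reads. Strong members without a partner, 6.33%, were 14.0% with 50% of the control peak covered and 15.4% with 50% of both, where other strong peaks had 8.64% and 10.7%. Leaving out the 171 members within 5 Mb of their chromosome's widest peak-free interval, chosen after seeing the data, gave 50.5% and 6.76%. Beyond what the settings build in, the cause was not tested. Members with 3 to 5 reads are at the limit of both lists.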

Other observations

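The knockdown list had more isolated peaks than the control list although it was the shorter one: 2549 of its 41540 peaks lay at least 100 kb from any other, against 1895 of 55124. A shorter list leaves larger gaps, so neither number is read as a change. A control peak overlapped 1978 of them, or 77.6% (75.9 to 79.2%), against 79.5% (79.1 to 79.9%) of other knockdown peaks. Set beside other knockdown peaks of like fold the difference was -2.21 percentage points (-3.88 to -0.60), and beside those of like summit pileup it was 2.28 points (0.61 to 3.89), so its direction depends on the measure of strength. Of the 2549, 631 overlapped a control peak that was itself isolated, or 24.8% (23.1 to 26.5%). These 631 are 33.3% of the 1895 isolated control peaks.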
